A study of Mus musculus with 40 samples.

Results

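Protein kinase A (PKA) is the kinase that carries most of the cAMP signal in a cell, and the transcripts of its subunits and inhibitors were followed here in a mouse kidney cell line in which up to 3 transcription factors of the CREB family had been knocked out. The genes were the 9 rows of the deposited table, out of 55414, with the symbols Prkaca and Prkacb (catalytic subunits), Prkar1a, Prkar1b, Prkar2a and Prkar2b (regulatory subunits), and Pkia, Pkib and Pkig (inhibitors). All 9 symbols were found, each in 1 row. They were chosen by name and role, with earlier results of these data known.

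The cells were mpkCCD, an immortalized line from the mouse kidney collecting duct. All groups were grown on permeable supports and received 0.1 nM dDAVP, a vasopressin analogue, for 72 hours. The table holds 22 libraries, of which 11 came from unmodified control clones (genotype label WT). A further 5 carry the label ATF1-KO. The label ATF1/CREB1-KO is on 3, and the triple knockout, ATF1/CREB1/CREM-KO, is on the last 3. All of these factors bind the cAMP response element. The other 18 samples in the labels, where 1 factor was returned to the triple knockout, were not analysed here. Whether replicates with the same knockout label are separate clones or cultures is not stated, so the p-values measure only the spread between these libraries, which may be technical. No untreated group was among the 22 libraries, so none of the values below is a response to dDAVP.

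The library numbers fall into 3 consecutive runs, and each knockout label was compared with the control clones of its own run. The ATF1-KO libraries are numbered next to control clones 1 to 5 (run 1), ATF1/CREB1-KO next to control clones 6 to 8 (run 2), and ATF1/CREB1/CREM-KO next to control clones 9 to 11 (run 3). Nothing in the labels says that a run is a batch. The values are TPM, a level per transcript length that adds to the same total in each library, so that levels can be set side by side between genes. The number of reads behind them is unknown. Each library listed 17296 to 20703 genes above 0. The epithelial and principal cell genes Krt8 (192.6 to 1869 TPM) and Aqp2 (15.1 to 2351 TPM) were present in all 22 libraries, whereas Tfap2b, another principal cell marker, was listed at 0 in 21. Markers of other cell types were mixed. Slc22a6 (proximal tubule), Atp6v1g3 (intercalated cell), Pvalb (distal tubule), Col1a2 (fibroblast) and Cdh5 (endothelium) were listed at 0 in all 22. Above 0 in all 22 were Lrp2 of the proximal tubule list (1.1 to 25.2 TPM), Atp6v1b1 (14.4 to 103 TPM) and Aqp6 (0.67 to 20.8 TPM) of the intercalated cell list, and Cd68 of the leukocyte list (1.11 to 13.1 TPM). Of the targeted genes, Atf1 and Creb1 transcripts were still present under the knockout labels, and Crem was not read here. The mean of Atf1 was 42.2 ± 4.22 TPM (SD) over control clones 1 to 5 and 26.6 ± 8.88 TPM over the ATF1-KO replicates. In ATF1/CREB1-KO it was 19.0 ± 4.38 TPM against 24.5 ± 1.53 TPM. In ATF1/CREB1/CREM-KO Atf1 overlapped its control clones, at 23.7 to 40.8 TPM against 39.8 to 40.5 TPM. Creb1 in ATF1-KO, where it was not targeted, was at 39.0 ± 1.40 TPM against 30.6 ± 2.39 TPM. Creb1 was at 3.39 ± 0.596 TPM against 5.55 ± 0.984 TPM in run 2 and at 18.7 ± 0.593 TPM against 37.7 ± 1.61 TPM in run 3 (n = 3 each).

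As background, the PKA holoenzyme is a regulatory subunit dimer that holds a pair of catalytic subunits inactive. cAMP binds the regulatory subunits and frees the catalytic subunits, which phosphorylate their targets. Type I and type II regulatory subunits differ in where they sit and how they bind anchoring proteins, and the PKI inhibitors block free catalytic subunits and can carry them out of the nucleus. In the principal cell of the collecting duct, vasopressin raises cAMP through the V2 receptor, PKA phosphorylates the water channel aquaporin-2, and CREB is a classic nuclear substrate of PKA.

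Because CREB1, ATF1 and CREM bind the cAMP response element, the start regions of the members were read for its letters on both strands. The full element is TGACGTCA. Its half-site is TGACG. On the opposite strand the half-site reads CGTCA. The windows ran from 250 bases before to 50 after each start site listed by RefSeq (assembly GRCm38.p6). Windows were found for 8 of the 9 genes (24 windows), the exception being Pkia. Prkar1a alone among the 8 held the full element, in 2 of its overlapping windows. Across all genes with a window it occurred in 549 of 27025 (2.03%), and across all windows in 588 of 32851 (1.79%). The 30 bases around it lie at chr11:109650889-109650918 on the plus strand. The element begins 49 bases before 1 listed start site (109650949) and 38 bases after another (109650862), so it is upstream of the first and within the transcribed stretch of the second. It is shown first, with the element in capitals. The upstream sequences of the outermost listed start sites of both catalytic genes follow, because the results below turn on this pair. Prkaca is shown from chr8:83972728-83972977 (plus strand) and Prkacb from chr3:146812991-146813196 (minus strand), each 5′ to 3′ in the direction of the gene, with half-sites in capitals. The Prkacb stretch stops short of its start site (146812946), because the bases between lie in an annotated exon of the gene and were left out. Half-site positions below are counted from the start site, not from the end of the printed stretch.
Prkar1a: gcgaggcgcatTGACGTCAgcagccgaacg
Prkaca: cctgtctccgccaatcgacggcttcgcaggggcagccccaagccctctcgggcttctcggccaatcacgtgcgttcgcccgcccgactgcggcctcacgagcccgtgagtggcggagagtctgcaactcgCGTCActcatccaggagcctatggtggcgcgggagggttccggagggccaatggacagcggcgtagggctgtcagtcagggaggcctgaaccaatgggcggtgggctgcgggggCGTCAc
Prkacb: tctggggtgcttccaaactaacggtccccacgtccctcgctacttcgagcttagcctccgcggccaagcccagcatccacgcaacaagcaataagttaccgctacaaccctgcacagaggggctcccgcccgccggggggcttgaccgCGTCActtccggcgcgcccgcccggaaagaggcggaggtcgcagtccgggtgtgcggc
A half-site, counting those inside a full element, was found for 6 of the 8 genes, beside 6228 of 27025 genes overall (23.05%). These genes have more listed windows each than the average gene, and per window the shares were nearer, 8 of 24 (33.3%) beside 6837 of 32851 (20.8%). Prkaca had 2, beginning 120 and 6 bases before its start site, and Prkacb had 1, beginning 102 bases before. The nearest in Prkar2a began 4 bases before its start site, that in Prkar1b 49 and that in Pkig 211 bases before. These letters were not in the windows of Prkar2b and Pkib. A match describes the sequence only.

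In the control clones Prkar1a was the most abundant of the 9 transcripts in runs 1 and 3. In run 2 it was Pkig (118 to 167 TPM, beside 65.1 to 75.6 TPM for Prkar1a). The order of the others is given here at the RNA level for run 1, and it was not the same in every run. In control clones 1 to 5 Prkar1a, the type I alpha regulatory subunit, was at 344, 349, 341, 337 and 336 TPM. By its mean of 342 ± 5.46 TPM (SD, n = 5) it ranked 504th of the 13357 genes with at least 1 TPM. All 5 values lay above those of every other member. Prkaca, which encodes the catalytic subunit C alpha, was at 133, 174, 120, 165 and 147 TPM in the same clones. Prkar2b (type II beta) was at 94.9 to 128 TPM with a median of 117 TPM, and Pkig (the gamma inhibitor) at 97.8 to 128 TPM with a median of 117 TPM. The ranges of Prkaca, Prkar2b and Pkig overlapped in run 1. Within each of the 5 clones Prkaca lay above Prkar2b, most narrowly in control clone 3 (120 against 117 TPM). The place of Pkig beside these genes changed from clone to clone. In control clones 9 to 11 the 3 ranges did not overlap: Prkaca was at 158 to 187 TPM, Prkar2b at 115 to 136 TPM and Pkig at 85.7 to 103 TPM.

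Prkacb, the gene of the second catalytic subunit C beta, came next at 55.5, 42.7, 51.2, 53.3 and 57.1 TPM, below every value of the 3 genes above. Prkar2a (type II alpha) was lower again, between 23.01 and 40.8 TPM, and Pkia (the alpha inhibitor) was between 10.8 and 20.3 TPM. These 3 ranges did not overlap in run 1. In run 2 those of Prkacb (10.3 to 13.8 TPM) and Prkar2a (8.39 to 12.2 TPM) did, in control clones 6 to 8. Prkar1b, known as a mainly neuronal type I subunit, was at 0.32 to 1.64 TPM in run 1 and did not exceed 2.59 TPM in any of the 22 libraries. Pkib was listed at 0 in 21 libraries and at 0.05 TPM in control clone 9. Pkib did not reach the mean of 1 TPM that a gene needed to enter a test in any comparison, and Prkar1b reached it only in run 1, so 8, 7 and 7 members were tested in the comparisons of runs 1, 2 and 3. The processed pseudogene Prkaca-ps1, which could share reads with Prkaca, was listed at 0 in all 22 libraries. The plot of TPM by library gives every value.

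**Figure D1:**
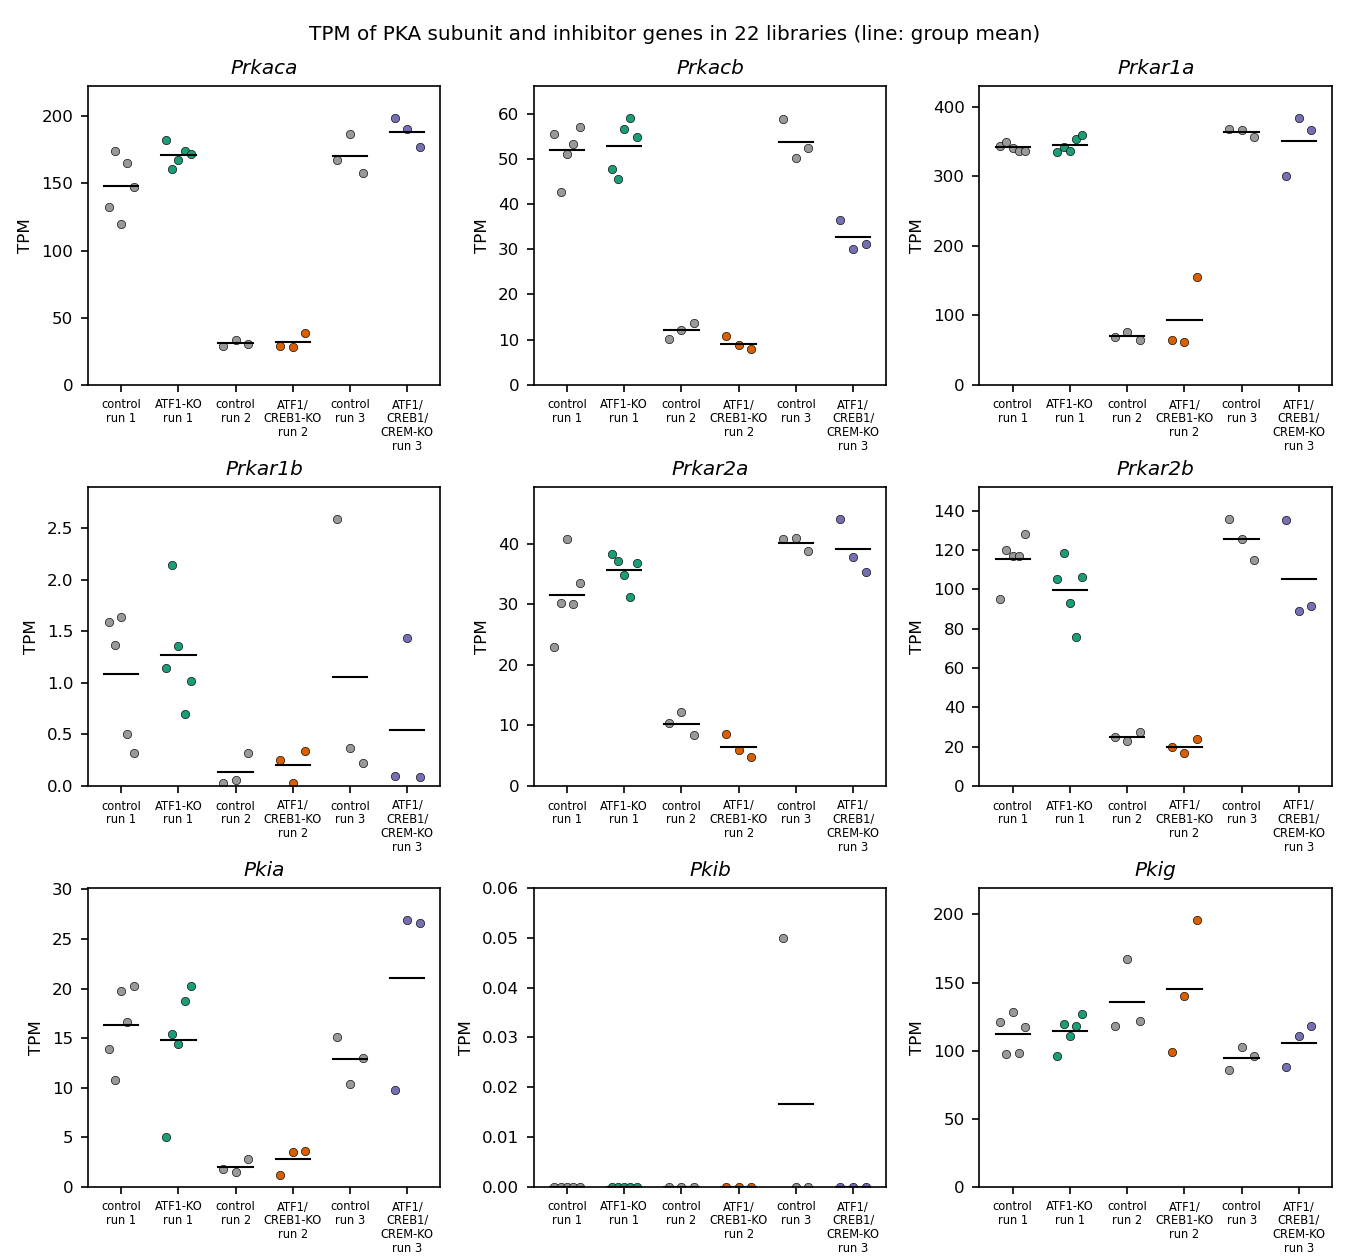
TPM (vertical axis, linear from 0, a separate scale for each gene) of the 9 PKA subunit and inhibitor genes in the 22 libraries, grouped by run and knockout label; each point is 1 library and the line is the group mean. Prkacb was at 30.1 to 36.6 TPM in the libraries labelled ATF1/CREB1/CREM-KO and at 50.2 to 58.8 TPM in the control clones of that run; all members above 1 TPM but Pkig sat far lower in run 2.

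The libraries labelled ATF1/CREB1/CREM-KO had less Prkacb and no detected difference in its partner Prkaca. Prkacb was at 36.6, 30.1 and 31.2 TPM in these 3 libraries and at 58.8, 50.2 and 52.3 TPM in control clones 9 to 11. Every knockout library lay below every control clone. The mean was 60.6% of that of the control clones, a log2 change of −0.71 (SE 0.113, 95% interval −0.98 to −0.44, limma adjusted p = 0.0158 over 13258 genes). Of the 7 members tested, Prkacb was the 1 called, against 9.17% of all genes tested that were called and 5.26% that were called lower, so the count for the family was near the background. Of all genes tested, 20.2% had all 3 knockout libraries below all 3 control clones. An exact two-sided permutation test of Prkacb gave p = 0.1, the smallest p that 3 libraries against 3 can give. In bulk RNA fewer cells of a type and less RNA per cell cannot be told apart. The summed TPM of 3 marker lists also separated these groups. These were the 5 epithelial markers (6272 to 7629 TPM against 8092 to 9383 TPM) and the 3 leukocyte markers (2.28 to 3.35 TPM against 5.00 to 8.02 TPM). The third was the 2 distal tubule markers (1.24 to 4.4 TPM against 0.04 to 0.14 TPM), of which Pvalb was at 0 in all 22 libraries. The sums of the other lists overlapped, among them the 13 principal cell markers (3422 to 3598 TPM against 3077 to 5202 TPM). Such a sum can overlap while single markers in it differ, as Aqp2 did by the values given further below. The part of cell types in the result was not tested.

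The change in Prkacb kept its direction when any 1 library was left out (log2 change −0.79 to −0.64), but the call was lost without control clone 9 (limma adjusted p = 0.0791), control clone 11 (p = 0.0706), ATF1/CREB1/CREM-KO replicate 2 (p = 0.0652) or replicate 3 (p = 0.0636). Against all 11 control clones, which include those of run 2, the log2 change was −0.12 (limma adjusted p = 0.924). In an alternative chosen after seeing the data, the control clones of runs 1 and 3 were pooled, 8 libraries from 42.7 to 58.8 TPM, all above the 3 knockout libraries. The log2 change of Prkacb was then −0.67 (SE 0.103, limma adjusted p = 0.00107). The exact permutation p was 0.00606, the smallest of 165 splits.

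Prkaca was at 199, 190 and 177 TPM in the same 3 libraries and at 168, 187 and 158 TPM in control clones 9 to 11, so the groups overlapped. Its log2 change was 0.14 (95% interval −0.08 to 0.37, limma adjusted p = 0.360). The catalytic pool, the summed TPM of both genes, was 221 ± 13.6 TPM against 224 ± 13.5 TPM (SD, n = 3 each). These sums differed by less than their SD, while their make-up differed. Prkaca made up 85.3% ± 0.965 of the catalytic TPM in the libraries labelled ATF1/CREB1/CREM-KO and 76.0% ± 2.50 in their control clones, and there were 5.81 ± 0.457 Prkaca transcripts per Prkacb transcript against 3.19 ± 0.460. The 3 shares, from 84.5% to 86.3%, lay above those of all other 19 libraries, which ran from 68.9% to 83.0%. It is given with no test, since it restates the level of Prkacb.

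**Figure D2:**
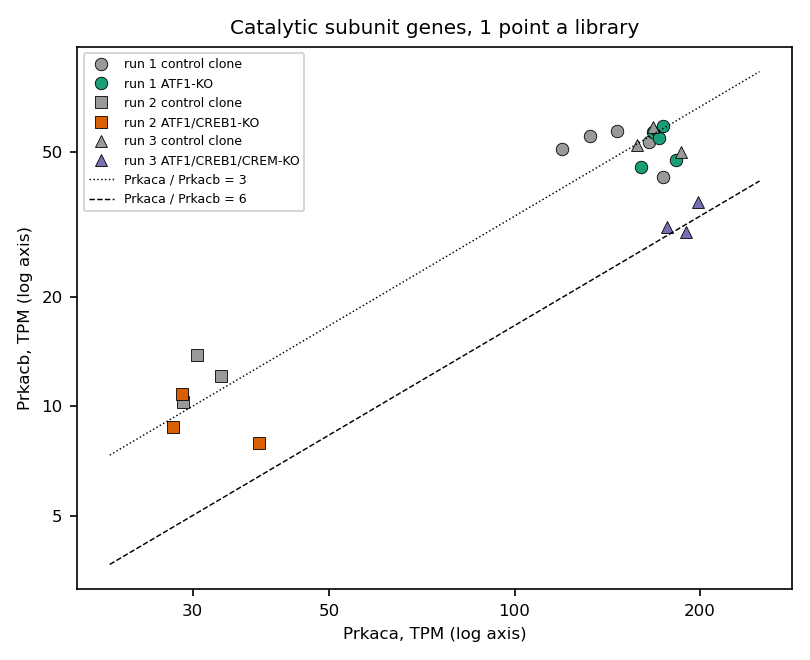
TPM of Prkaca (horizontal log axis) against TPM of Prkacb (vertical log axis); each point is 1 of the 22 libraries, and the lines mark 3 and 6 Prkaca transcripts per Prkacb transcript. The 3 libraries labelled ATF1/CREB1/CREM-KO lie along the line at 6 (5.43 to 6.32), the other 19 range from 2.21 to 4.87, and the 6 libraries of run 2 lie apart at low levels of both genes.

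The regulatory subunits were not called in the libraries labelled ATF1/CREB1/CREM-KO. Prkar1a, the gene with the cAMP response element printed above, was at 301, 384 and 367 TPM against 368, 367 and 357 TPM. Replicate 1 was the lowest of the 6 and replicate 2 the highest, so the groups overlapped, and the log2 change was −0.06 (95% interval −0.31 to 0.19, limma adjusted p = 0.748). Prkar2a was at 44.1, 37.9 and 35.3 TPM against 40.7, 40.8 and 38.7 TPM (log2 change −0.04, 95% interval −0.30 to 0.21, adjusted p = 0.835). Prkar2b, the more abundant type II subunit, was at 135, 88.8 and 91.7 TPM against 136, 125 and 115 TPM. Replicates 2 and 3 lay below all control clones, whereas replicate 1 lay among them. Its log2 change was −0.27 (95% interval −0.68 to 0.14, limma adjusted p = 0.351).

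Among the inhibitors, Pkia was at 9.77, 26.9 and 26.7 TPM in the libraries labelled ATF1/CREB1/CREM-KO and at 15.1, 10.4 and 13.1 TPM in the control clones. Replicates 2 and 3 lay above all control clones and replicate 1 below all of them. The log2 change was 0.56 (95% interval −0.34 to 1.47, limma adjusted p = 0.385). The outcome for Pkia and Prkar2b turned on replicate 1, which went against the other 2 replicates for both genes. Without it the log2 change of Pkia was 1.02 (limma adjusted p = 0.00622) and that of Prkar2b −0.47 (adjusted p = 0.0115). That fit had 2 knockout libraries left and 3317 genes called in place of 1216. Leaving out the library that disagreed cannot show a change in either gene. Pkig was at 88.1, 110 and 118 TPM against 85.7, 103 and 96.2 TPM, with overlapping groups and a log2 change of 0.14 (95% interval −0.17 to 0.46, adjusted p = 0.523). The median log2 change of the 7 members was −0.04, beside −0.05 over all genes tested.

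In the libraries labelled ATF1-KO no member was called, and limma called 0 of 13318 genes (0%). At an unadjusted p under 0.05 there were 1014 genes (7.61%), among them 1 of the 8 members tested, Prkaca. Prkaca was at 183, 161, 168, 174 and 172 TPM in these libraries against 133, 174, 120, 165 and 147 TPM in control clones 1 to 5. Its highest value was in a knockout library and its lowest 3 in control clones 1, 3 and 5, but control clone 2 lay above 4 of the 5 knockout libraries, so the groups overlapped. The mean was 116% of that of the control clones (log2 change 0.22, SE 0.0987, limma adjusted p = 0.653). An exact permutation test gave p = 0.0794, where 0.00794 is the smallest that 5 against 5 can give.

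Prkacb was close to its control clones. It was at 47.7, 45.5, 56.7, 59.0 and 54.9 TPM in the libraries labelled ATF1-KO, and these values overlapped those of the control clones given above (log2 change 0.02, 95% interval −0.20 to 0.24, limma adjusted p = 0.967). The interval excludes the change measured in the libraries labelled ATF1/CREB1/CREM-KO. Prkar1a was the least variable member here, at 335 to 360 TPM against 336 to 349 TPM, with a log2 change of 0.02 (95% interval −0.09 to 0.12, adjusted p = 0.937). Prkar2a had a log2 change of 0.19 (adjusted p = 0.739), Prkar1b of 0.15 (adjusted p = 0.900) and Pkig of 0.03 (adjusted p = 0.960), all with overlapping groups. Prkar2b was at 105, 118, 92.9, 75.5 and 106 TPM against 94.9, 120, 117, 117 and 128 TPM. Its lowest value was ATF1-KO replicate 4 and its highest control clone 5 (log2 change −0.22, 95% interval −0.48 to 0.05, adjusted p = 0.699). Pkia was at 5.05, 15.5, 14.4, 18.7 and 20.2 TPM, of which replicate 1 stood below all 5 control clones (13.9, 10.8, 19.8, 16.7 and 20.3 TPM), with a log2 change of −0.22 (adjusted p = 0.878). No group of any member was free of overlap in this comparison, beside 1.30% of all genes tested that were.

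In the libraries labelled ATF1/CREB1-KO no member of the 7 tested was called either, where limma called 9 of 12579 genes (0.0715%). Groups overlapped for all 7, whereas 19.0% of all genes tested had groups that did not. Prkacb was at 10.8, 8.75 and 7.90 TPM against 10.3, 12.1 and 13.8 TPM in control clones 6 to 8. Replicates 2 and 3 lay below all control clones and replicate 1 above control clone 6. The mean was 75.9% of that of the control clones, with a log2 change of −0.36 (SE 0.198, 95% interval −0.83 to 0.10, limma adjusted p = 0.613). That interval holds both 0 and the change of the libraries labelled ATF1/CREB1/CREM-KO, so these data do not separate the 2.

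Prkar2a had the lowest knockout mean relative to its control clones in run 2. It was at 8.57, 5.90 and 4.80 TPM against 10.3, 12.2 and 8.39 TPM, and only replicate 1 reached into the control range, by lying above control clone 8. The log2 change was −0.62 (SE 0.243, limma p = 0.0364, adjusted p = 0.497), where 9.53% of all genes tested had an unadjusted p under 0.05. Prkar1a was at 64.5, 61.5 and 156 TPM against 68.7, 75.6 and 65.1 TPM, so that replicate 3 stood far above the other 5 libraries and the other 2 replicates below all control clones (log2 change 0.29, adjusted p = 0.822). Replicate 3 also stood apart in composition. Ribosomal protein genes took 6.95% of its TPM and 12.2% to 14.8% in the other 5 libraries of run 2. The part of this in its Prkar1a level was not tested. Prkar2b (19.6, 16.5 and 23.7 TPM against 25.03, 22.7 and 27.5 TPM) had a log2 change of −0.33 (adjusted p = 0.665). Prkaca, at 28.8, 27.9 and 38.5 TPM against 28.9, 33.4 and 30.5 TPM, had a log2 change of 0.02 (adjusted p = 0.977). Pkia (log2 change 0.27, adjusted p = 0.821) and Pkig (0.06, adjusted p = 0.952) overlapped their control clones as well.

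**Figure D3:**
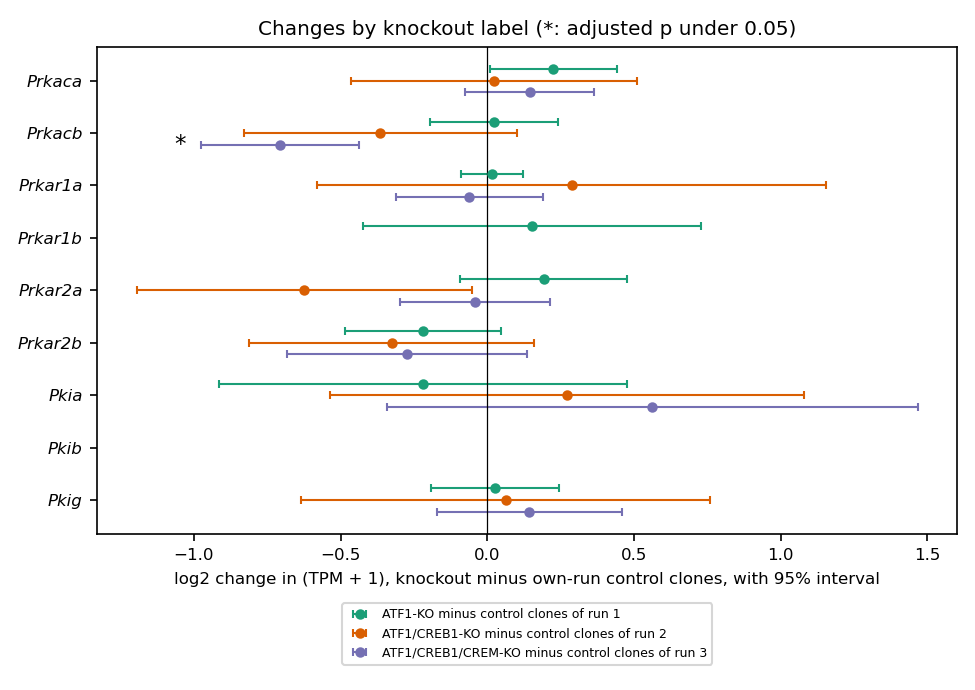
Log2 change in (TPM + 1) of each tested member (horizontal axis, points with 95% intervals from limma), knockout label minus own-run control clones, where 8, 7 and 7 members were tested, and the star marks an adjusted p under 0.05. Prkacb in ATF1/CREB1/CREM-KO (−0.71) is the only starred point, and most intervals of run 2 are wide.

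Whether a member changed by different amounts under different knockout labels was tested as a difference of changes in 1 limma fit over all 22 libraries. Prkacb had a log2 change of −0.71 in ATF1/CREB1/CREM-KO and of 0.02 in ATF1-KO. The difference was −0.73 (SE 0.180, limma adjusted p = 0.0282 over 13295 genes), a stronger fall in ATF1/CREB1/CREM-KO. Prkacb was the only 1 of 7 members called, beside 3.57% of all genes. The difference fell short of the threshold when TPM were rescaled between libraries by median ratios (−0.67, adjusted p = 0.113) or by quantile normalization (−0.69, adjusted p = 0.0659). Between ATF1/CREB1/CREM-KO and ATF1/CREB1-KO the difference for Prkacb was −0.34 (adjusted p = 0.682), and between ATF1/CREB1-KO and ATF1-KO it was −0.39 (adjusted p = 0.306). The latter contrast had its lowest adjusted p among the members at Prkar2a (difference −0.82, SE 0.232, adjusted p = 0.0822). No member was called in these 2 contrasts, in which 0.188% and 1.46% of all genes were.

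In the regulatory pool the Prkar1a share of the ATF1/CREB1-KO libraries, 69.4% to 84.3%, lay above that of their control clones, 64.3% to 68.4%. The top value was in replicate 3. In replicates 1 and 2 the higher share did not come from more Prkar1a. Prkar1a itself lay below all control clones there (64.5 and 61.5 TPM against 65.1 to 75.6 TPM), and so did Prkar2b (19.6 and 16.5 TPM against 22.7 to 27.5 TPM). Among single genes tested in run 2, 19.0% had groups that did not overlap. The Prkar1a shares of the other knockout labels overlapped those of their control clones. No test was made of these shares. As group means, Prkar1a gave 69.8% of the regulatory TPM in the control clones of run 1, 66.2% in those of run 2 and 68.7% in those of run 3. Under the knockout labels it gave 71.8% in ATF1-KO, 75.7% ± 7.76 in ATF1/CREB1-KO and 70.6% ± 6.93 in ATF1/CREB1/CREM-KO (SD, n = 3 in the last 2). Prkar2b gave between 17.9% and 23.9% as a group mean, Prkar2a between 6.29% and 9.74%, and Prkar1b at most 0.262%. The order Prkar1a, Prkar2b, Prkar2a, Prkar1b held in the means of all 6 groups. Summed regulatory TPM stood at 2.16 to 2.87 times the summed catalytic TPM in the group means, with the top of that range in ATF1/CREB1-KO, where replicate 3 with its high Prkar1a reached 3.98.

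**Figure D4:**
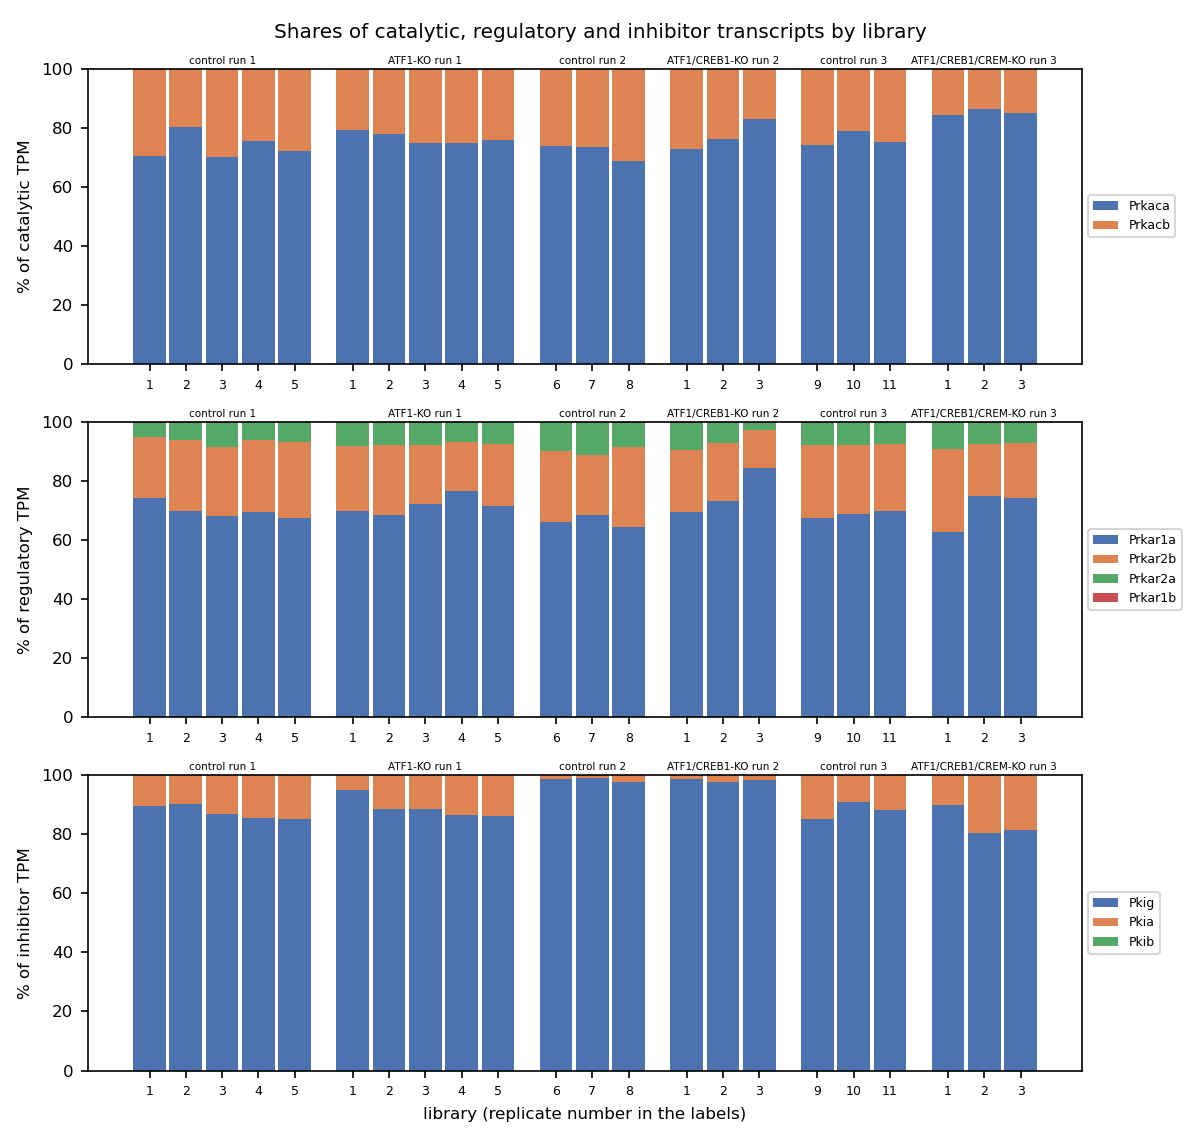
Shares in percent (vertical axis, 0 to 100) of catalytic, regulatory and inhibitor TPM by gene; each bar is 1 of the 22 libraries, labelled with its replicate number and grouped by run and knockout label. The Prkaca share is highest in the 3 libraries labelled ATF1/CREB1/CREM-KO (84.5% to 86.3%), Prkar1a leads the regulatory genes in all bars, and Pkig leads the inhibitors.

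The inhibitor pool was mainly Pkig, which gave 84.0% to 88.9% of the inhibitor TPM as a group mean in runs 1 and 3, and 98.4% and 98.2% in the control clones and knockout libraries of run 2. Summed inhibitor TPM per summed catalytic TPM was 0.657 in the control clones of run 1 and 0.481 in those of run 3, against 3.19 in those of run 2. That large step between runs occurred in unmodified clones.

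Control clones of run 2 had far lower TPM for all tested members but Pkig. Prkaca was at 28.9, 33.4 and 30.5 TPM in control clones 6 to 8, beside 120 to 174 TPM in run 1 and 158 to 187 TPM in run 3. Prkar1a was at 68.7, 75.6 and 65.1 TPM beside 336 to 349 TPM and 357 to 368 TPM. No value of run 2 overlapped those of runs 1 and 3 for Prkaca, Prkacb, Prkar1a, Prkar2a, Prkar2b or Pkia. Against run 1, the log2 difference was −2.21 for Prkaca, −2.02 for Prkacb, −2.28 for Prkar1a, −1.52 for Prkar2a, −2.16 for Prkar2b and −2.50 for Pkia, with limma adjusted p between 1.58e-12 and 3.50e-06. In that contrast 83.5% of all genes were called and 70.1% were called lower, with a median log2 difference of −1.35, so lower calls in 6 of 7 members are close to what the whole table did. Pkig was at 118, 167 and 121 TPM in run 2, beside 97.8 to 128 TPM in run 1 and 85.7 to 103 TPM in run 3 (run 2 minus run 1 0.26, adjusted p = 0.182).

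Transcript length and ribosomal protein transcripts moved with this step. The ribosomal protein genes (86 symbols) took 6.95% to 14.8% of all TPM in run 2 (6 libraries) and 2.58% to 4.02% elsewhere (16 libraries). By the longest coding transcript in GENCODE M21, found for 84.2% of the genes tested, the median difference of run 2 from run 1 was 1.41 for 651 genes under 1000 bases, −1.07 for 2294 genes from 1000 to 2000 bases and −1.83 for 2472 genes from 2000 to 3000 bases. Beyond that it levelled off and then lay nearer 0, at −1.93 for 2046 genes from 3000 to 4000 bases, −1.80 for 2281 genes from 4000 to 6000 bases and −1.40 for 1453 longer genes. Pkig has the shortest of the members' transcripts (1059 bases) and the others run from 2276 bases for Prkaca to 4965 bases for Prkar2a. Within their own length class, Pkig stood at percentile 82 and the other members between 16.7 (Pkia) and 62.6 (Prkar2a). The place of Pkig depends on the class edge at 1000 bases, which it barely passes. Its difference of 0.26 lies below the lower quartile (0.742) of the class under 1000 bases. The part of length and of ribosomal protein transcripts in these differences was not tested, and run cannot be told apart from clone.

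The scale of the values mattered here. Median-ratio scaling brought the median of all genes in run 2 minus run 1 to −0.07 and the difference of Pkig to 1.82 (adjusted p = 6.32e-10), while Prkaca (−0.67), Prkacb (−0.52), Prkar1a (−0.72), Prkar2b (−0.62) and Pkia (−1.25) stayed lower and called. Prkar2a was then at −0.03 (adjusted p = 0.886), and under quantile normalization, where the median was −0.27, at 0.01 (adjusted p = 0.972). Quantile normalization put Pkig at 1.07 (adjusted p = 3.53e-07). Between the control clones of runs 3 and 1 no member of 7 was called (2.20% of all genes were), and the log2 differences ran from −0.30 for Pkia to 0.36 for Prkar2a.

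**Figure D5:**
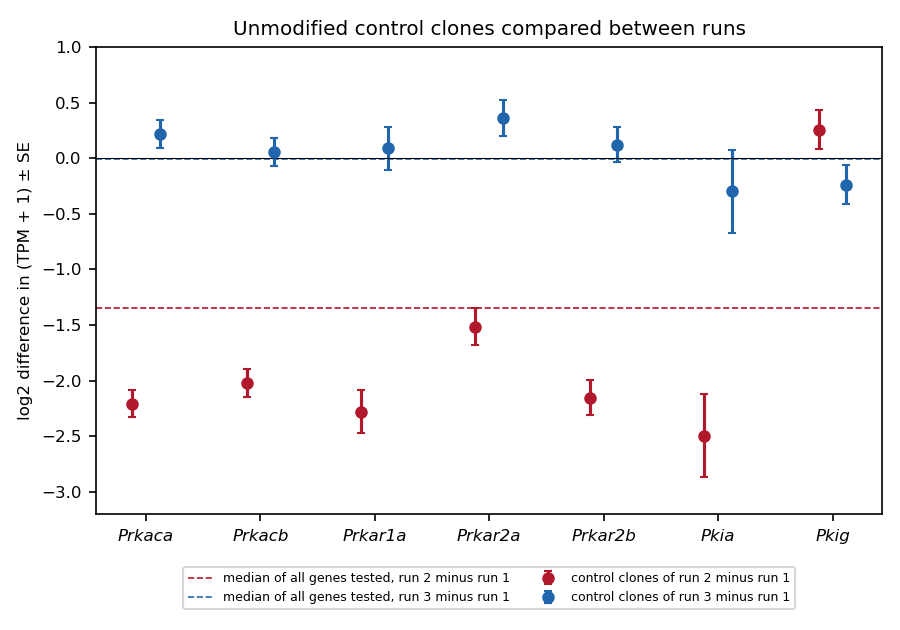
Log2 difference in (TPM + 1) between unmodified control clones of run 2 and run 1 (red) and of run 3 and run 1 (blue) for the 7 members in the fit over 22 libraries; points with SE (vertical axis), dashed lines at the median of all genes. In red, 6 members lie below −1.5, below the median of −1.35, and Pkig lies at 0.26; in blue all lie within −0.30 and 0.36.

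Partners of PKA were read from lists fixed by role, chosen as the members were with earlier results known. Anchoring proteins hold PKA at sites in the cell. Of 18 tested in the comparison of ATF1/CREB1/CREM-KO, 2 were called, both higher, beside 3.91% of all genes called higher, and the median log2 change was 0.00. Pde4dip, a scaffold also called myomegalin, was at 62.7 ± 2.40 TPM against 35.9 ± 9.14 TPM (SD, n = 3 each; log2 change 0.82, limma adjusted p = 0.0463). Akap8l, a nuclear protein related to the anchoring protein AKAP8, was at 71.5 ± 10.1 TPM against 48.7 ± 4.49 TPM (0.54, adjusted p = 0.0499). Of 4 tested genes of other cAMP effectors and PKA turnover, 1 was called higher and 1 lower, beside 3.91% and 5.26% of all genes. Rapgef3, which encodes the cAMP-activated exchange factor EPAC1, fell from 69.8 ± 12.1 TPM to 45.1 ± 3.70 TPM (log2 change −0.61, adjusted p = 0.0432). Pja2, a ubiquitin ligase that acts on PKA regulatory subunits, rose from 65.2 ± 2.18 TPM to 90.4 ± 9.38 TPM (0.46, adjusted p = 0.0379). The PKA-related kinase gene Prkx was at 13.3 ± 1.65 TPM against 15.7 ± 1.64 TPM (−0.23, adjusted p = 0.337).

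Upstream of the kinase, none of the 6 genes tested for the cAMP source (V2 receptor, G proteins, adenylyl cyclases) was called in ATF1/CREB1/CREM-KO, with a median of −0.19. Of 6 phosphodiesterases, the enzymes that break cAMP down, 2 were called, both lower, beside 5.26% of all genes called lower, and the median was −0.99 beside −0.05 over all genes. Pde4b fell from 30.9 ± 1.49 TPM to 0.447 ± 0.221 TPM (log2 change −4.47, limma adjusted p = 4.13e-04), and Pde4a from 5.55 ± 0.813 TPM to 2.09 ± 0.835 TPM (−1.11, adjusted p = 0.0410). Of 13 phosphatases and PKA substrates none was called, with a median of −0.25. In ATF1-KO no gene of the 18, 4, 6, 5 and 13 tested in these lists was called, and in ATF1/CREB1-KO none of 17, 4, 5, 4 and 13. Aqp2, the transcript the study was designed around, was at 15.1, 16.1 and 15.3 TPM in the libraries labelled ATF1/CREB1/CREM-KO and at 1627, 641 and 2279 TPM in their control clones, a far larger difference than that of any of the 9 members.

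The 3 genes with profiles most like that of Prkacb, with log2 values centred on the control clones of each run, were Mr1, Etv3 and Isg20l2. Over 22 libraries and 10496 genes of at least 5 TPM, Pearson's r with Prkacb was 0.899 for Mr1, 0.894 for Etv3 and 0.892 for Isg20l2. These points share libraries and the same 3 low knockout libraries, and the values are given as a description.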

How the data were processed

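Per the labels' protocols, a SMARTer kit turned total RNA into cDNA, which was amplified, tagmented (Nextera XT) and read from both ends. The submitters' processing notes name STAR and RSEM, with no versions. The genome build is not given in the sources used here. The values the authors deposited are TPM, which hide depth, so no counting error is given. Differences were tested with limma 3.58.1 (R 4.3.3; eBayes with trend) on log2(TPM + 1). A gene entered a comparison at a mean of 1 TPM or more. p-values were adjusted by Benjamini-Hochberg over every gene of the fit, and a gene was called at an adjusted p under 0.05. A fold change on this scale understates that of low genes. The test was tried on simulated data. Exact permutation tests were two-sided. The text names all 9 members, called genes of 5 pathway lists (at most 6 a comparison), defining markers, Aqp2, and the 3 genes most like a called member. Atf1, Creb1 and Prkx, and the pseudogene Prkaca-ps1, were added outside that rule. Members and lists were chosen with earlier results of these data known. Alternatives were the control clones used, run as a covariate, the pseudocount, the filter, scaling, the variance trend and leaving out each library.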

Additional observations from a re-analysis of the deposited data

Results flagged for a closer look

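In the 5 libraries labelled ATF1-KO, Pkig made up 95.01% of the inhibitor TPM in replicate 1, and the nearest of the others was at 88.6%. The gap was large beside the range of the group (ratio 0.734). Pkia was at 5.05 TPM in that library and at 14.4 to 20.2 TPM in the other 4. Groups of 5 libraries were examined in this way for 24 values, and chance marks about 1 in 20.

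The log2 change of Prkacb differed between ATF1/CREB1/CREM-KO and ATF1-KO by −0.73 in the test of the difference itself (limma adjusted p = 0.0282). Prkacb was lower than all own-run control clones in 3 of 3 libraries of the first and in 0 of 5 of the second.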

How the results depend on the processing

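The number of genes called moved with the setting. For ATF1-KO it was 0, and 0 to 1 when 1 library was left out (1 without control clone 4). For ATF1/CREB1-KO it was 9. It was 609 with run as a covariate, 4260 with all 11 control clones, 18 with median-ratio scaling, 2 without a variance trend, 0 with no filter on low values, and 0 to 60 when 1 library was left out. For ATF1/CREB1/CREM-KO it was 1216. It was 137 with all 11 control clones, 710 with no filter, 2489 with the control clones of runs 1 and 3, and 185 to 3317 when 1 library was left out.

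Prkacb in ATF1/CREB1/CREM-KO (−0.71) was −0.12 with all 11 control clones and −0.79 to −0.64 when 1 library was left out (limma adjusted p = 0.00246 to 0.0791). In ATF1/CREB1-KO all 11 control clones gave log2 changes of −1.85 for Prkacb (adjusted p = 0.0446) and −1.64 for Prkaca (adjusted p = 0.0490), where own-run control clones gave −0.36 and 0.02. The 8 control clones of runs 1 and 3 in that set had levels of both genes far above run 2. Prkar2a in run 2 minus run 1 turned from −1.52 to 0.00883 with quantile normalization. The cause was not tested. The other settings kept 370 values of member changes, 75 of contrasts and 88 of shares on their side of the threshold or within 1 SD. A change or contrast that was not called in either setting counted as kept, whatever its size or sign. Of the member changes, 5 lost a call, 5 gained 1 and 1 reversed. Of the contrasts, 6 lost a call, 2 gained 1 and 1 reversed.

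Only ATF1-KO and its control clones share replicate numbers in 1 run. With the replicate number as a block, 0 genes were called and Prkacb was at 0.02 (adjusted p = 0.962). Same-numbered libraries did not deviate together (correlations −0.103 to 0.0843), and the best match had the same number only for replicates 3 and 5. With so few libraries this cannot decide whether the numbers pair the samples. For the other 2 comparisons no paired analysis was possible because the own-run groups share no numbers.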
